A study of Homo sapiens with 3 samples.

Results

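The ATP-binding cassette (ABC) transporter genes were followed through 3 RNA-seq libraries of T24 cells. The members were chosen by gene symbol: every gene of the count table whose Ensembl identifier belonged to a protein-coding gene named ABCA to ABCG followed by digits. The rule gave 45 of the 58381 genes in the table, of which 19792 were protein-coding. Subfamily A held 12 members, B 9, C 11, D 4, E 1, F 3 and G 5. ABCB1, the drug efflux pump P-glycoprotein, served as the reference point, and it was selected on its count in the libraries themselves, so its values are a description.

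T24 is a cell line from a human bladder urothelial carcinoma. The study asked how loss of HDAC6 alters the response of such cells to radiation, and compared control cells without irradiation (Ctrl), control cells irradiated at 10 Gy with a caesium source (RT), and irradiated cells, also at 10 Gy, that carried a short hairpin RNA against the deacetylase HDAC6 (RT + shHDAC6). Lentiviral infection with the hairpin vector or with a control pLKO.1 vector was followed by puromycin selection. The labels do not say which library carried the control vector, and the study's text speaks of untreated cells for Ctrl and of parental cells for RT. If these were not infected, infection and selection came together with the hairpin and cannot be told apart from it. The time between irradiation and RNA extraction was not given in the sources used here. Each condition had 1 library, so no difference below has a replicate check, no p-value is given, and a gene is called higher or lower by size alone: at least 2-fold after TMM scaling (a factor that aligns the bulk of genes between libraries), provided that the higher library had at least 10 counts. Counts are given in the order Ctrl, RT, RT + shHDAC6.

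ABC proteins couple ATP hydrolysis by a conserved pair of nucleotide-binding domains to the movement of substrates across a membrane. Most members export lipids, bile salts, conjugates or drugs, and the efflux pumps ABCB1, ABCG2 and the ABCC proteins are known for lowering drug levels in tumour cells, those of bladder carcinoma included. Other members act on internal membranes: subfamily D in peroxisomes and lysosomes, several of subfamily B in mitochondria. The proteins of subfamilies E and F have no membrane-spanning part and serve in translation.

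ABCB1 (ENSG00000085563) lies on the minus strand of chromosome 7 of GRCh38, from 87503017 to 87713323, and is read from an upstream and a downstream start. RefSeq (GRCh38.p14) windows from 250 bases before to 50 bases after a transcript start were available for 35 of the 45 members, 53 windows in all. They are shown for both ABCB1 starts, because this gene differed most between the irradiated libraries, and for ABCC4, the drug efflux gene whose level was highest in RT + shHDAC6. All 3 are on the minus strand and are written 5′ to 3′. Capitals mark CCAAT, read on either strand (as ATTGG on the other), the letters bound by the factor NF-Y.

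ABCB1 upstream, chr7:87713246-87713545: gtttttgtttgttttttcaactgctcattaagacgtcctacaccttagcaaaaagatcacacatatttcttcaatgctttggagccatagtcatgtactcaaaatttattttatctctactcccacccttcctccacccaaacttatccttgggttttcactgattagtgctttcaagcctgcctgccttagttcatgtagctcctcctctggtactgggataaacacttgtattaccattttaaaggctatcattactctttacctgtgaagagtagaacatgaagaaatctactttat
ABCB1 downstream, chr7:87600835-87601134: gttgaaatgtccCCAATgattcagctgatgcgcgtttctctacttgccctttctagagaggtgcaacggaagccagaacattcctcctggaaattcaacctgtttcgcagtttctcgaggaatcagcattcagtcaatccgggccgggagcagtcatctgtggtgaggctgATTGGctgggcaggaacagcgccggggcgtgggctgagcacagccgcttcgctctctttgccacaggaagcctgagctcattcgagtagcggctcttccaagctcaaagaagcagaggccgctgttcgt
ABCC4, chr13:95301402-95301701: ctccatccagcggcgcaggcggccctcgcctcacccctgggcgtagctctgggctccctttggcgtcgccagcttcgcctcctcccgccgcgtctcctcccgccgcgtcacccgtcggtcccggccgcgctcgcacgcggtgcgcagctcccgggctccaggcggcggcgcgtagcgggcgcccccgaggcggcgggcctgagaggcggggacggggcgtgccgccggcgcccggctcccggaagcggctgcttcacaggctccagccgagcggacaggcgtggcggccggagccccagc

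The 3 windows differed in base composition, with 37.7% G and C at the upstream start of ABCB1, 55.3% at its downstream start and 79.7% at ABCC4. The downstream start of ABCB1 held CCAAT from -238 to -234 and ATTGG from -79 to -75, counted from the transcript start. The other windows held neither. On either strand, CCAAT was present in 22.6% of the 53 member windows and in 34.6% of all 35116 windows. The letters GGGCGG were present in 47.2% and 45.0%, and TATAAA in 15.1% and 11.5%. None of the 3 windows printed held GGGCGG or TATAAA. The counts were summed per gene and cannot tell the ABCB1 starts apart.

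The libraries held 35424086 to 41811165 counts, and the members took 0.145%, 0.187% and 0.178% of them in Ctrl, RT and RT + shHDAC6. A count of 0 allows up to 3 counts, or 0.0662 to 0.0894 CPM, counts per 1000000 of the TMM-scaled library. HDAC6 had 3098, 2383 and 2170 counts in the same order, and its level in the last was 87.2% of the RT level, or -0.20 on the log2 scale (95% limits -0.28 to -0.11), and 90.7% of the Ctrl level. HDAC6 was thus not called lower, and the RNA level in these libraries gives the label little support. The study did report lower HDAC6 mRNA by qPCR and lower protein by Western blot in its T24 cells with the hairpin. For the library used here, "with the hairpin" below follows the label alone. Such limits, here and below, are 95% Clopper-Pearson intervals of the log2 ratio and hold counting error only. Of 14 urothelial and epithelial markers, 8 had at least 100 counts in every library, while the uroplakins UPK1B, UPK2 and UPK3A had 3 counts or fewer. Fibroblast markers (4 genes) summed to 149, 101 and 118 CPM, endothelial markers (3 genes) to 23.1, 14.5 and 19.3 CPM, immune markers (4 genes) to 3.75, 3.07 and 2.86 CPM and hepatocyte markers (3 genes) to 1.54, 0.954 and 1.31 CPM. The mesenchymal markers VIM, CDH2, ZEB1 and FN1 each had at least 100 counts throughout. In bulk RNA, fewer expressing cells and less RNA per cell cannot be told apart.

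Most of the family was transcribed, at levels that spanned several orders of magnitude. At least 1000 counts in a library were reached by 17 members, among them ABCA2, ABCA3, ABCA5, ABCA7, ABCB8, ABCB10, ABCC1, ABCC4, ABCC5, ABCC10, ABCD3, ABCD4, ABCE1, ABCF1, ABCF2 and ABCF3. A highest count of at least 100 but under 1000 was seen for 9 members, among them ABCA1, ABCA10, ABCB1, ABCB9, ABCC2, ABCD2, ABCG2 and ABCG4. Another 13 members had a highest count between 10 and 99: ABCA4, ABCA6, ABCA8, ABCA9, ABCA12, ABCB4, ABCB6, ABCC3, ABCC6, ABCC8, ABCC9, ABCC11 and ABCG1. The remaining 6 were under 10 counts in every library. Of these, ABCG8 had 0 counts throughout, ABCG5 and ABCB11 had 1 count in RT + shHDAC6 alone, and ABCB5 had 1 count in RT and 1 in RT + shHDAC6. ABCA13 had 4, 6 and 5 counts and ABCC12 had 6, 4 and 5, again in the order Ctrl, RT, RT + shHDAC6. These 6 include the bile salt exporter ABCB11 and the sterol pair ABCG5 and ABCG8 of liver and intestine, and no difference between libraries was detectable for them at this depth.

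**Figure D1:**
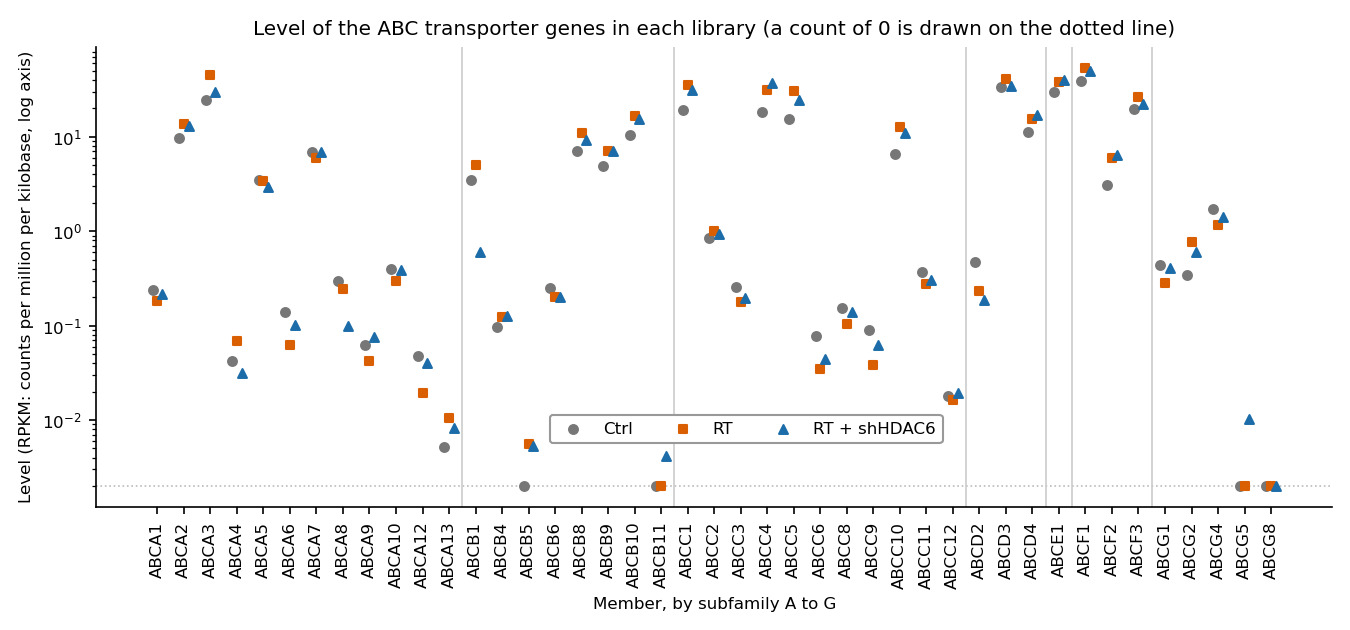
Level of members as CPM divided by the transcript length in kilobases (RPKM, log axis) by subfamily, with circles for Ctrl, squares for RT and triangles for RT + shHDAC6, 1 library each. ABCF1, ABCD3 and ABCE1 were at the top in Ctrl, and ABCB1 is the member whose RT + shHDAC6 point stands farthest below its other 2 points.

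Compared per length of the canonical transcript, as TMM-scaled CPM per kilobase (RPKM), the highest member was ABCF1 in every library, with 38.8, 53.7 and 50.1 RPKM in Ctrl, RT and RT + shHDAC6. The highest of each subfamily by mean were ABCA3 (24.6, 45.1 and 30.0 RPKM in the same order), ABCB10 (10.4, 16.7 and 15.4), ABCC4 (18.5, 31.5 and 37.4), ABCD3 (34.1, 40.7 and 34.8), ABCE1 (29.5, 38.0 and 40.3), ABCF1 and ABCG4 (1.70, 1.17 and 1.42). Subfamily G was thus the lowest of the 7 in its leading member. The weight of the leading gene differed between subfamilies. ABCA3 held 49.8% to 61.3% of the subfamily A counts, ABCD3 68.2% to 73.5% of subfamily D, and ABCF1 66.7% to 68.0% of subfamily F. ABCG4 held 52.1% to 70.3% of subfamily G. The member with the most counts in each library held 29.8% to 32.6% of subfamily B and 34.0% to 34.7% of subfamily C.

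ABCB1 was the member that differed most between RT + shHDAC6 and the other libraries. P-glycoprotein exports a wide range of hydrophobic drugs, among them the anthracyclines and vinca alkaloids given for bladder carcinoma. Its counts were 818 in Ctrl, 878 in RT and 110 with the hairpin, or 18.04, 26.2 and 3.14 CPM after TMM scaling. The libraries labelled Ctrl and RT were thus on the same order, and the library labelled RT + shHDAC6 stood far below both. With the hairpin its level was 12.0% of the RT level, or -3.06 on the log2 scale (limits -3.36 to -2.77), and between -3.07 and -2.98 under 3 other scalings. Against Ctrl the log2 ratio was -2.52 (limits -2.82 to -2.23). RT against Ctrl gave 0.54 (limits 0.40 to 0.68), short of the 2-fold limit, and 0.32 when library totals were used. Among the 10902 protein-coding genes with at least 100 counts in RT or RT + shHDAC6, 3 had a lower log2 ratio than ABCB1, and 25 of 11274 did in RT + shHDAC6 against Ctrl. Of its 50-base stretches, 1.83% also occur in another gene, all in its paralog ABCB4, which had 19, 18 and 19 counts.

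Urothelial and epithelial markers did not move together between these libraries. Of the 8 with at least 100 counts in every library, 2 were called lower between RT + shHDAC6 and RT, while 6 lay above 0 without reaching 2-fold. The lower ones were KRT7, a keratin of simple and urothelial epithelium, with 3533, 3854 and 597 counts and a log2 ratio of -2.75, and GATA3, a urothelial transcription factor, with 2320, 1423 and 709 counts and -1.07 (-0.98, short of the limit, with library totals). The others were EPCAM (0.51), KRT19 (0.39), KRT5 (0.36), KRT8 (0.35), CDH1 (0.23) and KRT18 (0.05). The whole list of 14 summed to 376, 465 and 370 CPM. The part of such markers in the ABCB1 difference was not tested.

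The genes around ABCB1 did not share the size of its difference. Within 500 kb of the gene lay 10 other protein-coding genes, of which RUNDC3B was too low to be called (7, 2 and 8 counts). In RT + shHDAC6 against RT the other 9 lay between -0.68 (ADAM22, with 1940, 2045 and 1334 counts) and 0.83 (TMEM243, with 473, 551 and 1026 counts) on the log2 scale. Of these 9, 0 were called. Over all protein-coding genes with at least 10 counts, 3.22% were called higher and 3.17% lower. The absence of calls among 9 genes thus says little about them as a set. Upstream of ABCB1, SLC25A40, DBF4 and SRI had log2 ratios of -0.32, -0.26 and -0.37. Downstream of it, ABCB4, CROT, DMTF1 and ELAPOR2 had log2 ratios of 0.02, 0.36, 0.34 and 0.18. The log2 ratio of ABCB4, the phosphatidylcholine exporter next to ABCB1, had an interval from -0.99 to 1.03, so its counts leave a change of up to about 2-fold in either direction undetectable.

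**Figure D2:**
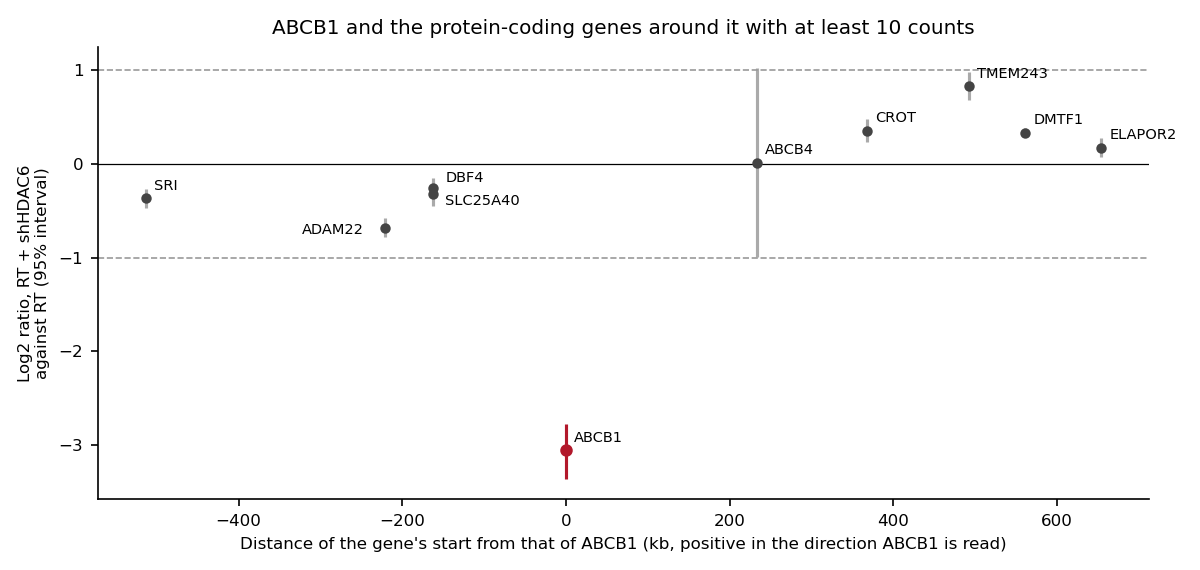
Log2 ratio of RT + shHDAC6 against RT (vertical axis, with 95% counting intervals) by distance of each gene's start from that of ABCB1 in kb, positive in the direction in which ABCB1 is read, for genes with at least 10 counts. ABCB1 (red) lies at -3.06 and its neighbours between -0.68 and 0.83, within the dashed lines at 2-fold.

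The drug efflux list held 9 members, all with at least 10 counts: ABCB1, ABCG2, ABCC1, ABCC2, ABCC3, ABCC4, ABCC5, ABCC10 and ABCC11. After irradiation the 4 abundant ABCC pumps were all higher than in Ctrl without reaching 2-fold. ABCC1, an exporter of glutathione conjugates, had 5638, 7764 and 7114 counts. Its log2 ratio was 0.90 (limits 0.85 to 0.95) between RT and Ctrl and -0.19 (limits -0.23 to -0.14) between the irradiated libraries. ABCC4, which exports cyclic nucleotides and nucleotide analogues, had 4906, 6177 and 7657 counts and was highest in RT + shHDAC6. Its log2 ratios were 0.77 (limits 0.71 to 0.82) after irradiation alone, 0.25 (limits 0.20 to 0.30) with the hairpin against RT and 1.02 (limits 0.96 to 1.07) for RT + shHDAC6 against Ctrl. The last was called higher, and at 0.88 with library totals it was not.

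ABCC5, another cyclic nucleotide exporter, had 4065, 5991 and 5038 counts, and ABCC10, which exports taxanes, had 1493, 2126 and 1925. Both were highest in RT, with log2 ratios against Ctrl of 0.99 and 0.95, just under the 2-fold limit, and both passed it under median-of-ratios scaling, ABCC5 at 1.05. ABCG2, the breast cancer resistance protein, had 65, 109 and 89 counts. Between RT and Ctrl it was called higher, with a log2 ratio of 1.18 (limits 0.72 to 1.65), and it missed the limit at 0.96 with library totals. RT + shHDAC6 against RT gave -0.35 for ABCG2, and the interval held 0 (-0.78 to 0.06).

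The other pumps of the list were at low level. ABCC2, the canalicular conjugate exporter, had 222, 194 and 189 counts, with log2 ratios of 0.24 (limits -0.04 to 0.53) between RT and Ctrl and -0.10 (limits -0.40 to 0.20) between RT + shHDAC6 and RT. ABCC3, its basolateral counterpart, had 66, 34 and 39 counts, with a log2 ratio of -0.52 (limits -1.16 to 0.10) for RT against Ctrl. ABCC11 had 98, 55 and 63 counts. Its log2 ratio between RT and Ctrl was -0.40 (limits -0.90 to 0.09), and each of these 4 intervals held 0.

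**Figure D3:**
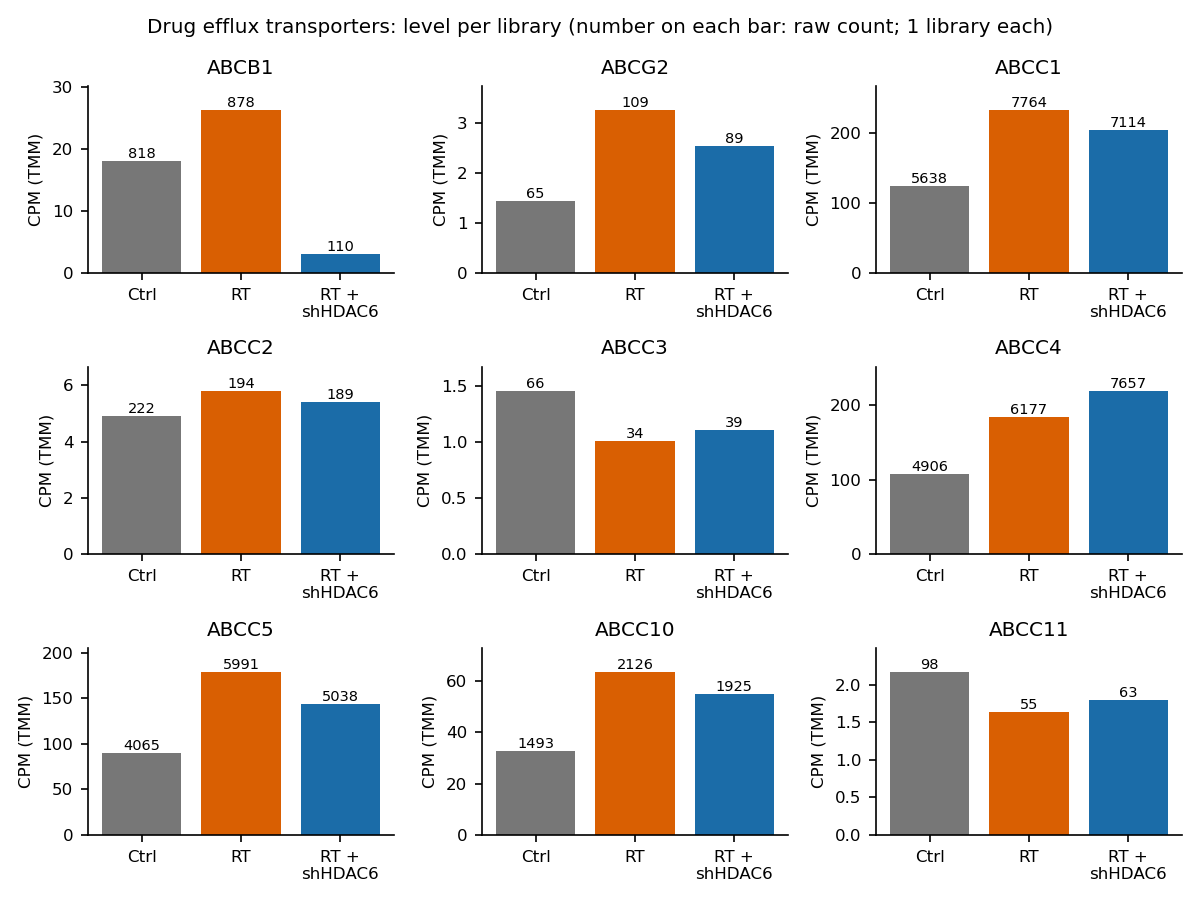
TMM-scaled CPM (linear axes from 0, a scale of its own for each gene) of the 9 drug efflux members in Ctrl, RT and RT + shHDAC6, with raw counts above the bars and 1 library per bar. ABCB1 dropped to 3.14 CPM in RT + shHDAC6, whereas ABCC4 was at its highest there with 219 CPM.

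Between RT and Ctrl the 9 drug efflux members had a median log2 ratio of 0.77, beside -0.02 over all 14390 protein-coding genes with at least 10 counts, and 7 of the 9 were above 0. Between the irradiated libraries the median was -0.19, beside 0.00 over 13956 protein-coding genes, and RT + shHDAC6 against Ctrl gave 0.68 beside -0.01 over 14428. The summed level of the list was 64.9, 118 and 107 RPKM. ABCC1, ABCC4 and ABCC5 were the 3 highest in each library. ABCB1 made up 5.34%, 4.27% and 0.564% of the sum, and its rank among the 9 was 5, 5 and 7.

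The sterol and phospholipid export list had 10 members, 8 of them with at least 10 counts. ABCA3, a phospholipid transporter of lamellar bodies and lysosome-related organelles, was by far the most abundant, with 7362, 9989 and 6929 counts. It was highest in RT, with a log2 ratio of 0.88 (limits 0.83 to 0.92) against Ctrl, and RT + shHDAC6 against RT gave -0.59 (limits -0.63 to -0.55). ABCA2, a sterol transporter of endolysosomes, had 3591, 3759 and 3715 counts. ABCA7, which exports phospholipids, had 2118, 1377 and 1666.

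ABCA1, which loads cholesterol onto apolipoprotein A-I, had 112, 64 and 78 counts. Its log2 ratios were -0.37 (limits -0.84 to 0.08) between RT and Ctrl and 0.22 (limits -0.27 to 0.72) between RT + shHDAC6 and RT. ABCG1, which delivers cholesterol to high-density lipoprotein, had 59, 28 and 43 counts, with -0.64 (limits -1.34 to 0.03) and 0.56 (limits -0.16 to 1.30). ABCG4, its close relative, had 294, 149 and 189 counts, with -0.55 (limits -0.84 to -0.26) and 0.28 (limits -0.04 to 0.60). The 3 genes were thus lowest in RT by point value, and among their 6 ratios the interval of ABCG4 in RT against Ctrl was the only interval that did not hold 0. The list's median was -0.28 between RT and Ctrl, 0.22 between RT + shHDAC6 and RT and -0.03 between RT + shHDAC6 and Ctrl, the last with a sign that turned with the scaling (-0.16 to 0.02). Over all protein-coding genes with at least 10 counts the medians were -0.02, 0.00 and -0.01. For those with 10 to 99 counts in the higher library, as ABCA12, ABCB4 and ABCG1 had, the median was -0.51 between RT and Ctrl. Between RT + shHDAC6 and RT it was 0.20.

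The mitochondrial transporters ABCB6, ABCB8 and ABCB10 were not called in any comparison. ABCB10, which takes part in haem synthesis, had 1825, 2167 and 2085 counts, with log2 ratios of 0.68 (limits 0.59 to 0.77) between RT and Ctrl and -0.12 (limits -0.21 to -0.03) between RT + shHDAC6 and RT. ABCB8 had 1512, 1712 and 1494. ABCB6, a porphyrin transporter, had 34, 20 and 21 counts, and 48.6% of its 50-base stretches also occur in other genes, among them a readthrough gene over the same exons, so its counts are uncertain.

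ABCD2, which carries very long-chain fatty acids into peroxisomes, was the member with at least 100 counts that was called lower after irradiation. Its counts were 136, 49 and 41, and both irradiated libraries lay below Ctrl. On the log2 scale RT stood at -1.04 (limits -1.54 to -0.56) and RT + shHDAC6 at -1.36 (limits -1.90 to -0.84) relative to Ctrl, and the first was -0.98, short of the limit, under median-of-ratios scaling. ABCD3, a carrier of branched-chain acids and bile acid precursors and the most abundant of the subfamily, had 5567, 4921 and 4389 counts, with 0.26 (limits 0.20 to 0.31) between RT and Ctrl and -0.23 (limits -0.29 to -0.17) between RT + shHDAC6 and RT. With the hairpin against Ctrl, ABCD3 gave 0.03 with a sign that turned with the scaling (-0.10 to 0.08). Lysosomal ABCD4, of cobalamin export, had 1551, 1589 and 1815 counts, and lysosomal ABCB9, a peptide transporter, 779, 831 and 871. Of the ABCB9 exon length, 24.6% is overlapped by genes on the other strand.

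The soluble ATPases of translation were all higher in RT than in Ctrl by point value and differed little between the irradiated libraries. ABCE1, which splits ribosomes after termination, had 5201, 4956 and 5479 counts, with log2 ratios of 0.37 (limits 0.31 to 0.42) between RT and Ctrl and 0.08 (limits 0.03 to 0.14) between RT + shHDAC6 and RT. ABCF1, a factor of translation initiation, had 5994, 6134 and 5971 counts, with 0.47 (limits 0.42 to 0.52) and -0.10 (limits -0.15 to -0.05). ABCF3 had 2189, 2160 and 1919 counts. ABCF2 had 634, 897 and 1024 counts, and was called higher in RT + shHDAC6 than in Ctrl with a log2 ratio of 1.06 (limits 0.92 to 1.21), or 0.93 with library totals. ABCF2 shares 36.6% of its 50-base stretches with other genes, chiefly the readthrough gene ABCF2-H2BK1, which had 0 counts in each library, and the pseudogene ABCF2P1, with 35, 21 and 16. The readthrough gene overlaps 37.1% of the ABCF2 exon length on the same strand. How reads in that overlap were counted was not given, so the counts of ABCF2 are uncertain too. The median of the 4 soluble ATPases was 0.44 between RT and Ctrl. Between RT + shHDAC6 and RT it was -0.01, where its sign turned with the scaling (-0.02 to 0.07).

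**Figure D4:**
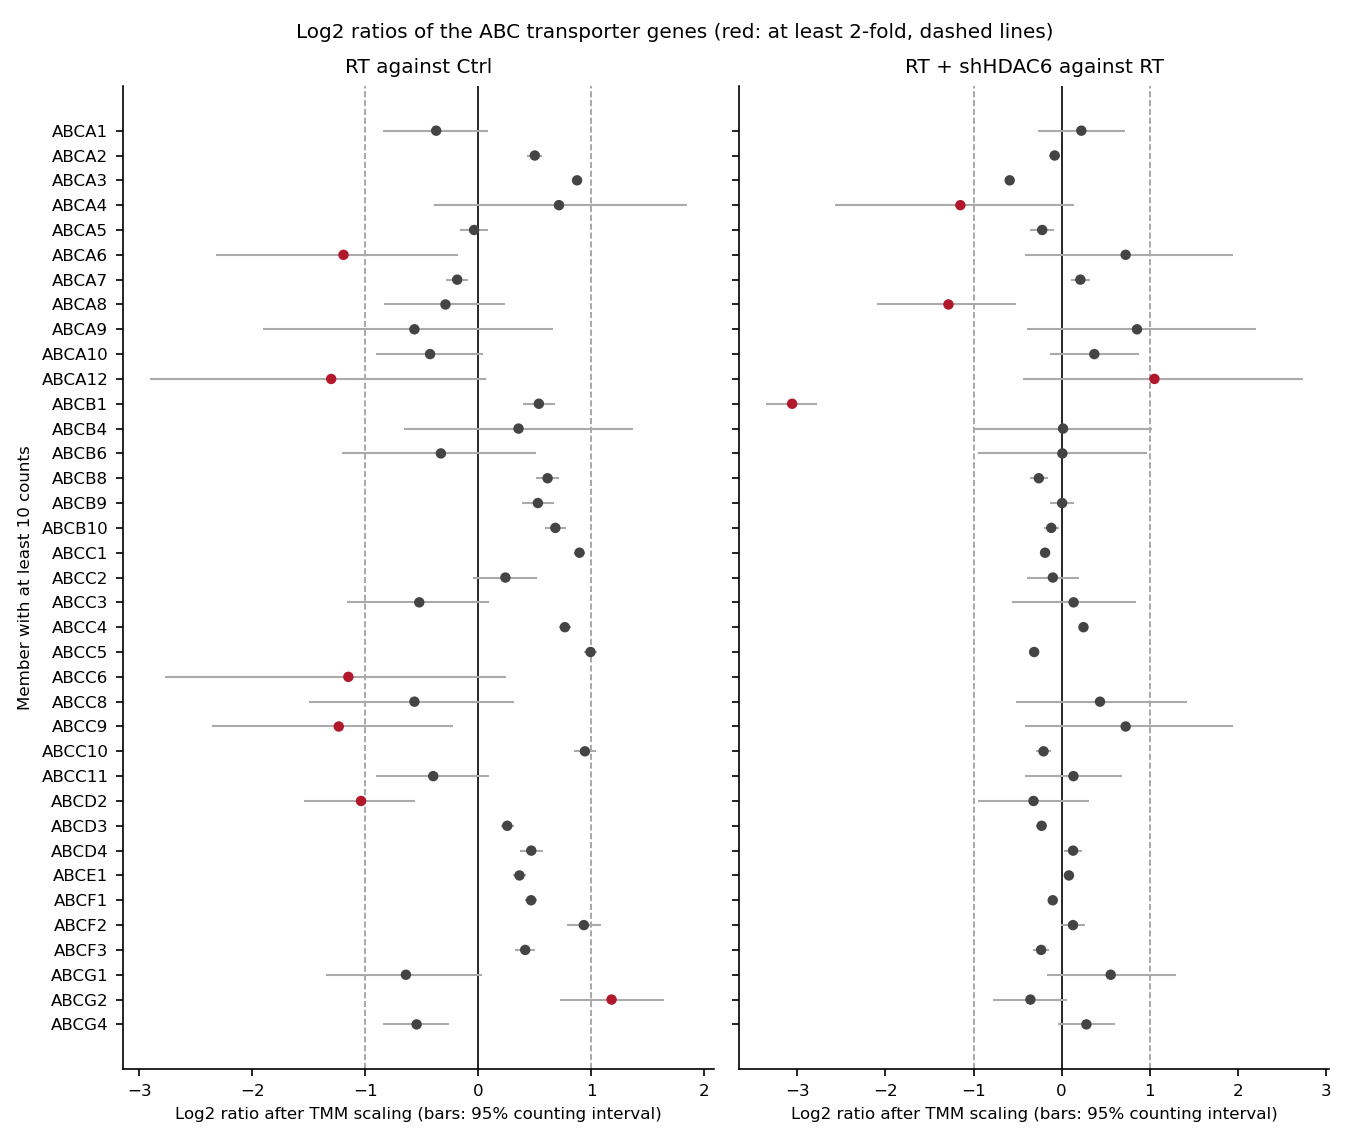
Log2 ratio (horizontal axis, 95% counting interval as bars) of members that reached 10 counts in either library, for RT against Ctrl (left) and RT + shHDAC6 against RT (right), with members called at 2-fold in red. ABCB1 at -3.06 on the right stands apart from the other members, whose red points belong to low counts with wide bars except for ABCG2 and ABCD2 on the left.

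Counted over the family, few members were called. For RT against Ctrl, 39 members had at least 10 counts. Of these 1 was higher (2.56%, beside 4.17% of protein-coding genes), namely ABCG2, and 5 were lower (12.8%, beside 6.25%): ABCA6, ABCA12, ABCC6, ABCC9 and ABCD2. With at least 100 counts, 26 members remained, with ABCG2 higher (3.85%, beside 4.36%) and ABCD2 lower (3.85%, beside 1.84%). Between RT + shHDAC6 and RT, 38 members were compared. ABCA12 was higher (2.63%, beside 3.22%), and ABCA4, ABCA8 and ABCB1 were lower (7.89%, beside 3.17%). With at least 100 counts, 0 of 23 were higher, beside 0.954%, and ABCB1 alone was lower (4.35%, beside 2.01%). ABCB1 was selected on its count in these libraries, so the shares called lower that include it, here and below, are a description.

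For RT + shHDAC6 against Ctrl, ABCC4 and ABCF2 of 39 members were higher (5.13%, beside 3.83%), and ABCA8, ABCB1 and ABCD2 were lower (7.69%, beside 6.46%). With at least 100 counts, 25 members remained, with ABCC4 and ABCF2 higher (8.0%, beside 3.4%) and ABCB1 and ABCD2 lower (8.0%, beside 3.73%). Each of these shares rests on 5 members or fewer. The comparisons share libraries, so a gene called in more than 1 of them is not independent evidence. The median over the members was 0.24 for RT against Ctrl (0.02 to 0.30 over the scalings), 0.01 for RT + shHDAC6 against RT (-0.0025 to 0.09) and 0.03 for RT + shHDAC6 against Ctrl (-0.10 to 0.08).

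By subfamily, the median log2 ratio between RT and Ctrl was -0.29 in A, 0.53 in B, -0.08 in C, -0.01 in D, 0.37 in E, 0.47 in F and -0.55 in G. Between RT + shHDAC6 and RT it was 0.21, 0.01, 0.13, -0.16, 0.08, -0.10 and 0.28 in the same order. Over the 4 scalings the sign of these medians turned in D for RT against Ctrl (-0.23 to 0.05) and in B for the irradiated libraries (-0.0037 to 0.09), and in no other subfamily. The summed CPM showed the weight of the abundant members: subfamily C went from 366 CPM in Ctrl to 667 in RT and 631 in RT + shHDAC6, and subfamily B from 160 to 217 and 183.

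Members of low count behaved differently from those of high count in RT against Ctrl, and so did protein-coding genes in general. Among the 13 members whose higher library had 10 to 99 counts, 11 had a log2 ratio below 0, with a median of -0.56, and 4 were called lower. Among all 3141 protein-coding genes in that range, 75.8% were below 0, with a median of -0.51, and 22.1% were 2-fold lower. With at least 1000 counts, 3 of 16 members were below 0 and their median was 0.49, beside 41.7% and 0.09 over 7418 protein-coding genes. With library totals each of these ratios is 0.22 lower, which puts the median of the abundant protein-coding genes below 0. In RT + shHDAC6 against RT, 3 of 15 low-count members were below 0, with a median of 0.22, beside 38.0% and 0.20 over 3054 protein-coding genes.

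**Figure D5:**
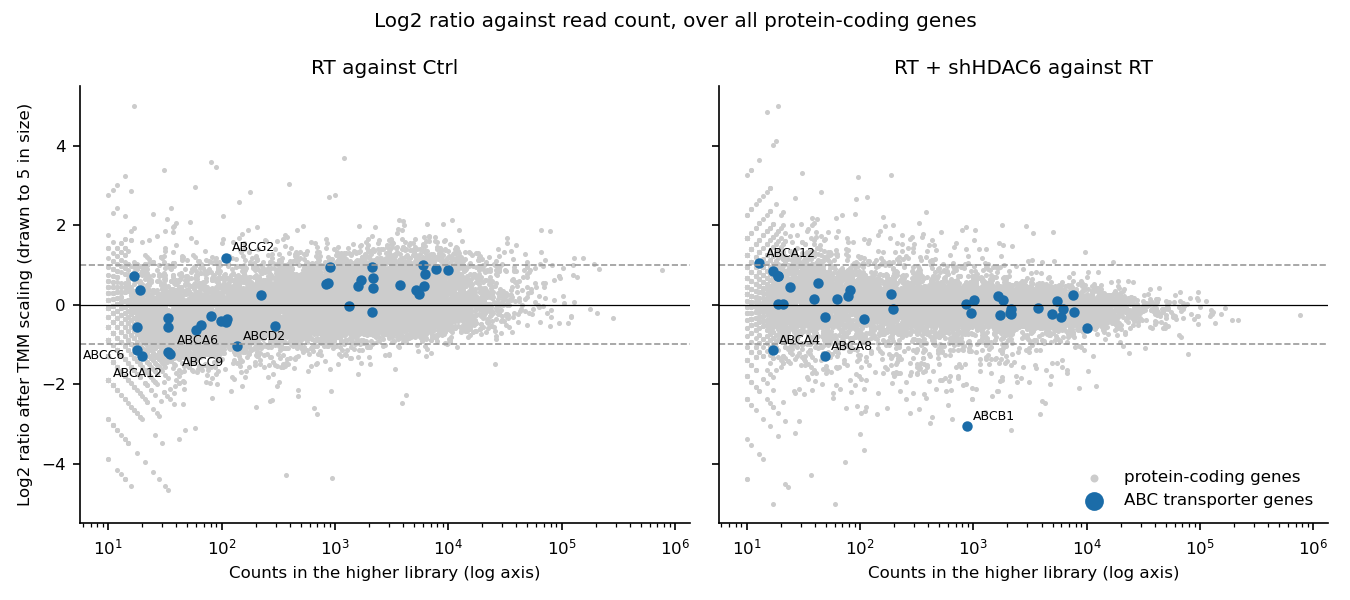
Log2 ratio (vertical axis) against the count in the higher library (log axis) for protein-coding genes (grey) and members (blue), with 2-fold lines dashed and called members named. On the left the low-count members lie below 0 together with most grey points, and on the right ABCB1 lies at the lower edge of the cloud for its count.

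The members called on fewer than 100 counts had wide intervals. ABCA6 had 34, 11 and 19 counts and gave -1.19 (limits -2.32 to -0.18) for RT against Ctrl. ABCC9, the sulphonylurea receptor of vascular potassium channels, had 35, 11 and 19 and gave -1.23 (limits -2.36 to -0.22). The intervals of ABCA12 (20, 6 and 13 counts) and ABCC6 (18, 6 and 8 counts) held 0 in RT against Ctrl, and so did those of ABCA4 (14, 17 and 8 counts) and ABCA12 in RT + shHDAC6 against RT. ABCC6 also shares 19.6% of its 50-base stretches with other genes, pseudogenes among them. ABCA8 had 81, 49 and 21 counts and gave -1.28 (limits -2.10 to -0.52) for RT + shHDAC6 against RT.

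ABCA8 belongs to a run of 5 subfamily A genes on chromosome 17 with ABCA5, ABCA6, ABCA9 and ABCA10. All 5 were below 0 for RT against Ctrl, with a median of -0.43, although ABCA5 was at -0.04 with a sign that turned with the scaling (-0.25 to 0.02). The intervals of ABCA5, ABCA8, ABCA9 and ABCA10 held 0. The highest counts of ABCA6, ABCA8 and ABCA9 lay between 10 and 99. In that range 75.8% of protein-coding genes were below 0 too, with a median of -0.51. Between the irradiated libraries, 3 were above 0 and 2 below. ABCA5 had 1320, 952 and 853 counts and held 84.5% to 88.1% of the counts of the run. ABCA9 had 18, 9 and 17 counts and ABCA10 had 109, 60 and 81. In CPM, ABCA6, ABCA9 and ABCA10 were lowest in RT, whereas ABCA5, ABCA8 and the sum of the run (34.4, 32.2 and 28.3 CPM) were lowest in RT + shHDAC6. The fibroblast marker sum was lowest in RT (149, 101 and 118 CPM), and its part in these values was not tested.

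Genes around the family were set beside it. The antigen peptide transporters TAP1 and TAP2 are ABC proteins under other symbols. TAP1 had 1832, 2757 and 2119 counts, and TAP2 had 2504, 4839 and 3793. Both were called higher after irradiation, with log2 ratios of 1.02 (limits 0.94 to 1.11; 0.81 with library totals) and 1.39 (limits 1.32 to 1.46). The chloride channel CFTR had 1, 0 and 1 counts.

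Of 28 known transcriptional regulators of ABC genes, 25 had at least 10 counts. EGR1, an immediate early factor, had 1999, 592 and 1272 counts. It was called lower after irradiation, with a log2 ratio of -1.32, and with the hairpin it was called higher than RT, at 1.04. PPARG, the lipid-sensing nuclear receptor, had 1298, 650 and 352 counts and was called lower with the hairpin than in Ctrl, at -1.51. The xenobiotic receptors NR1I2 and NR1I3, known inducers of ABCB1 in liver, had at most 1 count in any library. The subunits NFYA, NFYB and NFYC of NF-Y had log2 ratios of -0.10, 0.16 and -0.07 for RT + shHDAC6 against RT. Of the 3, 0 were called. Any part of NF-Y in the ABCB1 difference was not tested.

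Among 31 genes of xenobiotic metabolism, conjugation and uptake, 24 had at least 10 counts. The nucleoside carrier SLC29A1, which takes up gemcitabine, had 4269, 8495 and 7291 counts and was called higher after irradiation, with a log2 ratio of 1.43. POR, the reductase that serves cytochromes P450, had 3559, 5671 and 4165 counts and was also called higher (1.11; 0.89 with library totals). GSTA4, under 100 counts, was called lower. Between the irradiated libraries CYP1A1 was called lower, again on fewer than 100 counts. Relative to Ctrl, RT + shHDAC6 had SLC29A1 called higher, and CYP1A1 and the organic anion carrier SLCO1B3 (227, 142 and 81 counts) called lower. Of the cholesterol efflux partners, 9 of 10 had at least 10 counts, and the lipoprotein receptor SCARB1 was called higher after irradiation (6187, 11287 and 7787 counts, a log2 ratio of 1.30). Of 13 partners of the translation, peroxisomal, potassium channel and cobalamin members, 0 were called in any comparison. Over all protein-coding genes with at least 10 counts, 3.17% to 6.46% were called per direction and comparison. The few calls among the regulators, the xenobiotic genes and both lists of partners thus say little about these lists as sets.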

How the data were processed

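RNA of T24 cells was sequenced in 1 library per condition. The authors used cutadapt for trimming, STAR (2.6.1a in the submitters' processing notes) for alignment to GRCh38, and featureCounts with GENCODE release 28. The deposited counts are raw whole numbers per gene. Strand setting and treatment of reads matching several genes were not given in the sources used here.

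Of 58381 identifiers, 57799 matched GENCODE release 44, which gave symbols, positions and transcript lengths. TMM factors came from edgeR 4.0.16 over all genes (R 4.3.3). Compared with library totals they shifted log2 ratios by 0.22 for RT against Ctrl, -0.08 for RT + shHDAC6 against RT and 0.13 for RT + shHDAC6 against Ctrl. A count of 0 was set to 0.5. Intervals were computed with scipy 1.17.1. Median-of-ratios factors came from DESeq2 1.42.0. With 1 library per condition no count test could be run, and the noise simulation of NOISeq, the authors' method, was not used. The call was also run on simulated counts that held counting error alone. Changes larger than 2-fold were planted there, in genes with at least 100 expected counts. That run cannot check calls near 2-fold, calls on low counts or the spread between replicate libraries. Shared 50-base stretches were counted between GENCODE transcripts.

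Members and gene lists were chosen with earlier results of these data known. Named in full were ABCB1, members called with at least 100 counts, the highest member of each subfamily per length, and ABCC1 to ABCC4, ABCG2, ABCA1 and ABCG1. Members just under the limit, or needed to describe a list, were added after their values were seen, as were the markers KRT7, GATA3 and KRT18. A few genes are not reported here and are not drawn in the figures of members.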

Additional observations from a re-analysis of the deposited data

How the results depend on the processing

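No paired analysis was possible because each condition had 1 library, and for the same reason no library could be left out. The number of members called higher in RT than in Ctrl was 1, and it became 0 with library totals, 3 with median-of-ratios scaling, 3 without a count minimum and 10 with a 1.5-fold limit. The number called lower, 5, became 1 with a minimum of 100 counts. For RT + shHDAC6 against RT, the 1 member called higher became 0 with a minimum of 100 counts and 4 at 1.5-fold, and the 3 called lower became 1 with a minimum of 100 counts. For RT + shHDAC6 against Ctrl, the 2 members called higher became 0 with library totals, 1 with upper quartile scaling, 5 without a minimum and 7 at 1.5-fold. The share over all protein-coding genes was not computed under the other scalings, without a minimum or at 1.5-fold. Counts at those settings show how the calls depend on the setting, and are not a result about the family. The log2 ratio of ABCB1 for RT against Ctrl, 0.54, was 0.32 with library totals. ABCB1 stayed called lower in RT + shHDAC6 under all 4 scalings, against RT and against Ctrl. The median over all members, near 0, changed sign between RT + shHDAC6 and RT (0.01) to -0.0025 with median-of-ratios scaling and to -0.10 with a minimum of 100 counts, and between RT + shHDAC6 and Ctrl (0.03) to -0.10 with library totals. Over the 3 other scalings, 135 ratios of the members named in full other than ABCB1 were recomputed. Of these ratios, 101 moved by less than the counting interval and 34 by more. Another value for a 0 could not move them. The ratio of ABCB1 for RT against Ctrl also moved by more with library totals. With merged exon lengths, chosen after seeing the data, the highest member per length was the same in 6 of 7 subfamilies, and in subfamily C it was ABCC1 in place of ABCC4. Depth limits the 19 members under 100 counts, whose intervals are wide or could not be set.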

Other observations

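The table also listed 19 genes with ABC symbols that are not protein-coding members, pseudogenes and antisense transcripts among them. Most were at or near 0. The highest were ABCA11P, with 45, 53 and 61 counts in the order Ctrl, RT, RT + shHDAC6, and ABCA15P, with 31, 37 and 54. ABCA17P, which lies beside ABCA3, had 8, 20 and 7 counts, highest in RT as ABCA3 was, and the share of the ABCA3 50-base stretches that occur in it and other genes was 0.24%. ABCC6P1, a near copy of part of ABCC6, had 13, 7 and 0 counts. The readthrough gene over ABCB6 had 5, 3 and 0 counts.

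In the comparison of RT + shHDAC6 with RT, the 4 genes with at least 10 counts upstream of ABCB1 were below 0 (SLC25A40, DBF4, ADAM22 and SRI), and the 5 downstream were above 0 (ABCB4, TMEM243, CROT, DMTF1 and ELAPOR2). The order was noticed in these data, the ratio of ABCB4 was 0.02 with an interval that held 0, and its cause was not tested.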
